A study of Homo sapiens and Mus musculus with 8 samples.

Results

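Genes of the Hippo pathway and targets of its coactivator YAP were compared across UV exposure and Orai1 overexpression in the mouse melanoma line B16N. The 10 genes were the kinase genes Lats1 and Lats2, the adaptor genes Ajuba and Amotl2, the coactivator genes Yap1 and Wwtr1, the DNA-binding partner Tead1 and the target genes Ccn1, Ccn2 and Ankrd1. They were matched by gene symbol, ignoring letter case, and were chosen from the log2 changes and p-values of the tables described here, so their own changes are a description and support nothing. All 10 had a row in each of the 3 mouse tables, which held 14648 usable genes for UV at 2 weeks, 14821 for UV at 5 weeks and 15041 for the Orai1 clone. No member had a row in either human table of 420 genes. None of the 10 shared its values with another symbol, whereas between 28.9% and 29.3% of the symbols in each mouse table did.

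The study holds 8 samples of 3 melanoma lines, 1 per group. The B16N groups were untreated wild-type cells labelled day 0, wild-type cells exposed to UV and collected at week 2 or week 5, and a clone labelled O1C44 and day 0 that overexpresses Orai1, which forms the pore of store-operated Ca2+ channels. For the clone, cells received wild-type Orai1 fused to CFP, were kept under G418, sorted by fluorescence and grown on as single clones. The human lines WM983 and UACC257 were sampled untreated and under UV, with week 2 as the time label and UV3 in the titles of the exposed samples. All 3 B16N comparisons share the untreated sample, UV and the length of culture cannot be told apart, and the features of 1 clone, its selection and its sorting cannot be told apart from Orai1.

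In the Hippo pathway, the kinases MST1 and MST2 activate LATS1 and LATS2, which phosphorylate the coactivators YAP and TAZ and so keep them out of the nucleus. Without that phosphorylation YAP and TAZ bind TEAD factors at DNA and raise targets such as CCN1, CCN2 and ANKRD1. LATS2 and AMOTL2 are both targets and inhibitors of YAP, and in melanoma YAP and TAZ are known for links to invasion and drug tolerance.

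Each value below is the authors' log2 change of a treated B16N sample over the untreated one, with the sign turned so that positive means higher in the treated sample. The standard error (SE) is the one that the deposited score implies, intervals are 95% intervals from that SE, and adjusted p-values are Benjamini-Hochberg values computed over all usable rows of a table. "Rose" and "fell" stand for an adjusted p under 0.05. The tables give neither counts nor levels. The depth is therefore unknown, no gene can be ranked by level and no change has a replicate check here. A test between 2 libraries compares those libraries and not the conditions. In bulk RNA, fewer cells expressing a gene and less RNA per cell cannot be told apart.

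Which members passed differed by comparison, which by itself does not show that their changes differed. After 2 weeks of UV, 3 of the 10 fell (Lats2, Ajuba and Yap1) and none rose. After 5 weeks, Ccn1 rose and no other member passed. In the Orai1 clone, Ccn1 and Ccn2 rose and Ajuba and Lats2 fell. Over all rows, 7.67% passed at 2 weeks (3.13% higher and 4.55% lower), 4.78% at 5 weeks (3.07% higher and 1.71% lower) and 22.0% in the clone (10.3% higher and 11.6% lower). Since the members were chosen with these comparisons in view, nothing is read from their counts against those shares. The median log2 change of the 10 members was -0.11 at 2 weeks, -0.26 at 5 weeks and 0.06 in the clone, and that of all rows was 0.028, 0.025 and 0.072.

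**Figure D1:**
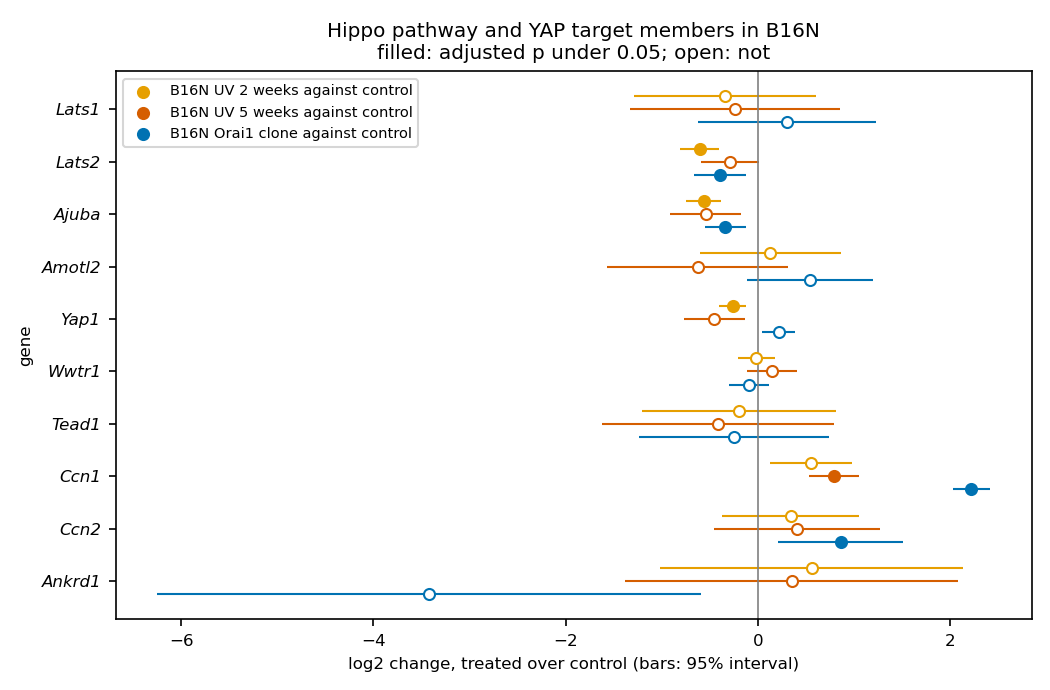
Log2 change of the 10 members (horizontal axis, treated over control) in the 3 B16N comparisons, with 95% intervals as bars and filled points where the adjusted p was under 0.05. Ccn1 in the Orai1 clone stands at 2.22, apart from its values of 0.56 and 0.79 under UV, and the intervals of Lats1, Tead1 and Ankrd1 are wide.

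Ccn1, which encodes a secreted matricellular protein, was the target with the largest rise among the members. Its log2 change in the authors' deposited tables was 0.56 at 2 weeks of UV (SE 0.22, adjusted p = 0.108), 0.79 at 5 weeks (SE 0.13, adjusted p = 5.93e-07) and 2.22 in the clone (SE 0.10, adjusted p = 1.81e-105). All 3 values were positive and the 95% interval lay above 0 each time, although the change at 2 weeks did not pass the adjusted threshold. On the linear scale the clone had 4.67 times the Ccn1 of control cells, with an interval of 4.07 to 5.35, and the 5-week sample 1.73 times, with an interval of 1.44 to 2.07. By the size of its score Ccn1 ranked 7 among the 15041 rows of the clone, and 2 among those that were higher. It ranked 66 at 5 weeks and 1469 at 2 weeks.

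Ccn2, the connective tissue growth factor gene of the same family, was above control in each comparison and passed in the clone. The authors' deposited tables gave 0.34 at 2 weeks (SE 0.36), 0.41 at 5 weeks (SE 0.44) and 0.86 in the clone (SE 0.33, adjusted p = 0.0446). Its SE was larger than that of Ccn1 in each comparison, and UV intervals of -0.37 to 1.06 and -0.45 to 1.27 leave both a fall and a 2-fold rise possible. The adjusted p in the clone lies just under the threshold.

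Ankrd1 encodes a nuclear ankyrin repeat protein that is a sensitive YAP target in muscle and epithelial cells. Its log2 change in the authors' deposited tables was 0.56 at 2 weeks (SE 0.80), 0.35 at 5 weeks (SE 0.89) and -3.42 in the clone (SE 1.44, adjusted p = 0.0739). It did not pass in any of the 3. In the clone its sign was opposite to that of Ccn1 and Ccn2, with an interval from -6.25 to -0.59 that is too wide for a fold to be read.

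The LATS kinases differed in precision. Lats2 was lower than control in each of the 3 comparisons, at -0.60 at 2 weeks (SE 0.10, adjusted p = 9.49e-07), -0.29 at 5 weeks (SE 0.15, adjusted p = 0.407) and -0.39 in the clone (SE 0.14, adjusted p = 0.0249) in the authors' deposited tables. In linear terms Lats2 stood at 0.658 times control at 2 weeks and at 0.764 times in the clone. Lats1, its paralog, had values of -0.34 (SE 0.48), -0.24 (SE 0.56) and 0.30 (SE 0.47) in the authors' deposited tables. Its intervals reach from -1.33 at 5 weeks to 1.23 in the clone, so a change of the size seen for Lats2 was not detectable for Lats1.

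Among the adaptors, Ajuba, whose LIM-domain protein binds LATS kinases and holds them back, was lower in each comparison. It stood at -0.56 at 2 weeks (SE 0.093, adjusted p = 2.05e-07), -0.54 at 5 weeks (SE 0.19, adjusted p = 0.0744) and -0.34 in the clone (SE 0.11, adjusted p = 0.0133) in the authors' deposited tables. The 2 UV values lie 0.018 apart, and the SE at 5 weeks was larger than at 2 weeks, so the missed threshold at 5 weeks does not show a smaller change. With rows of SE at most 0.5 alone in the adjustment, Ajuba passed at 5 weeks as well. Amotl2, an angiomotin-like scaffold that binds YAP, passed nowhere, with 0.13 (SE 0.37), -0.63 (SE 0.48) and 0.55 (SE 0.34) in the authors' deposited tables.

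Of the coactivators, Yap1 fell at 2 weeks by 0.26 on the log2 scale (SE 0.072, adjusted p = 0.00698), as the authors' deposited table gives it. The authors' deposited tables placed it at -0.45 at 5 weeks (SE 0.16, adjusted p = 0.0867) and at 0.22 in the clone (SE 0.089, adjusted p = 0.0603). Its values were thus below control under UV and above it in the clone, and each interval lay on one side of 0. In the clone Yap1 passed when rows of SE at most 0.5 alone were adjusted and when the median change of precise rows was set to 0. Wwtr1, which encodes TAZ, had -0.014 (SE 0.099), 0.15 (SE 0.13) and -0.092 (SE 0.11) in the authors' deposited tables, and its widest interval ran from -0.11 to 0.41 at 5 weeks. A 2-fold change of Wwtr1 therefore lies outside each of its intervals. Tead1 stood at -0.20 (SE 0.52), -0.41 (SE 0.61) and -0.25 (SE 0.50), and with intervals as wide as -1.62 to 0.79 a 2-fold fall was not detectable.

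**Figure D2:**
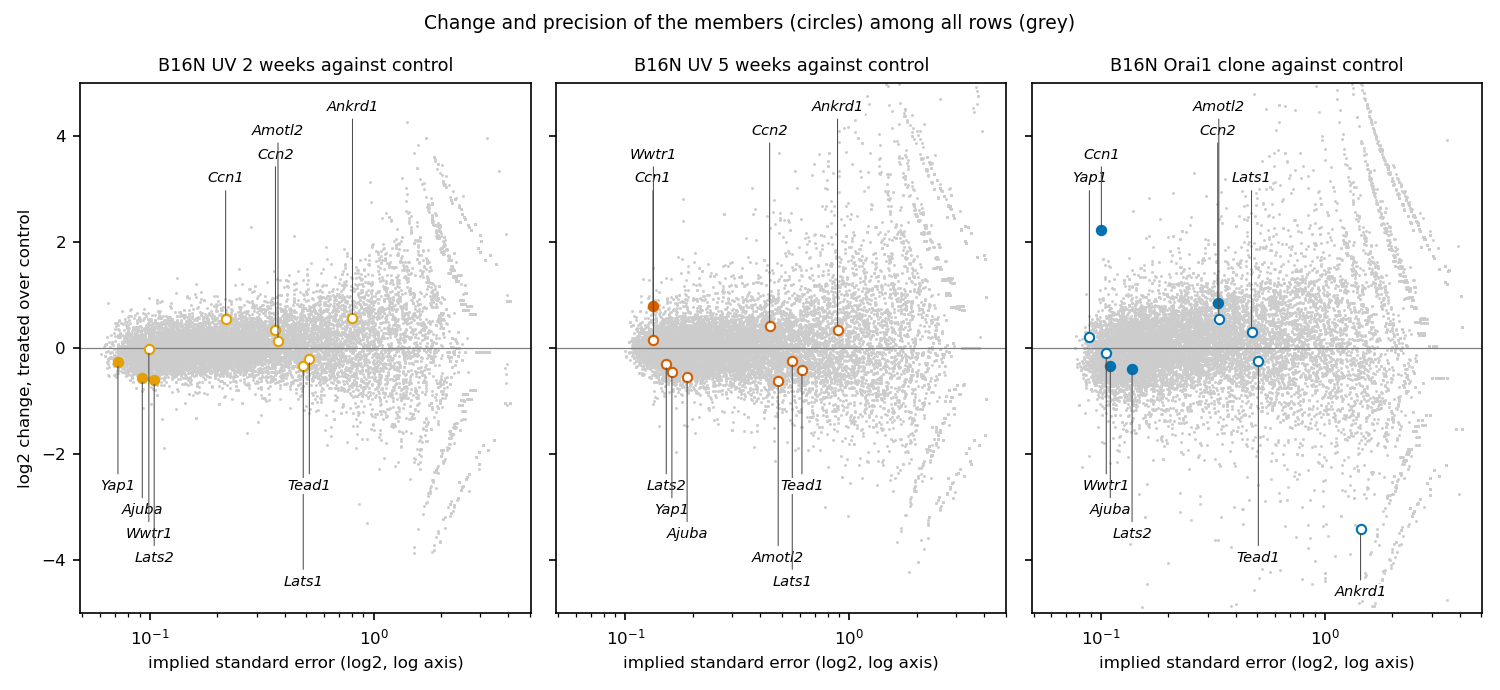
Log2 change (vertical axis) against the implied SE (horizontal log axis) for all rows in grey and the 10 members as circles, filled where the adjusted p was under 0.05. Points beyond the vertical axis are not shown (1, 45 and 79 rows from left to right). In the clone, Ccn1 stands above most rows of like SE, and Ankrd1 has the largest SE of the members.

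Rows of small SE passed more often than rows of large SE. Of rows with an SE of at most 0.2, 19.8% passed at 2 weeks, 10.2% at 5 weeks and 42.4% in the clone, against 0.161%, 1.62% and 5.55% of rows with an SE above 0.5. At 2 weeks 4 members had an SE of at most 0.2 (Ajuba, Lats2, Yap1 and Wwtr1), and 3 of them passed. At 5 weeks and in the clone Ccn1 joined them, and 1 of 5 and 3 of 5 passed. Wwtr1 was among these precise members each time and did not pass. Of the members with an SE above 0.2 and at most 0.5, 1 passed, Ccn2 in the clone, where 20.5% of rows in that range did. Tead1 and Ankrd1 had an SE above 0.5 in each comparison and did not pass.

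Changes were then compared with one another, by a normal test of their difference. The common control drops out of the difference itself, but the SE adds the squares of both SEs as if the changes were independent. The spread of the control is thus counted in both, which by itself makes the SE larger, the intervals wider and the p-values larger. By how much was not tested. Between 5 and 2 weeks of UV the difference passed for none of the 10 members in the authors' deposited tables (adjusted p from 0.587 to 0.999), where 3.33% of all rows passed. None of the 10 had an unadjusted p under 0.05 for that difference. The narrowest intervals of that difference were those of Wwtr1, from -0.16 to 0.49, Yap1, from -0.54 to 0.15, and Lats2, from -0.047 to 0.68.

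Against 2 weeks of UV, the clone differed for 2 of 10 members, where 11.7% of all rows did. From the authors' deposited tables, Ccn1 was higher in the clone by 1.67 (SE 0.24, adjusted p = 3.71e-10), as the clone's 2.22 against 0.56, and Yap1 by 0.48 (SE 0.11, adjusted p = 6.58e-04), as 0.22 against -0.26. Against 5 weeks of UV the difference passed for Ccn1 and Yap1 again, where 5.35% of all rows passed. In the authors' deposited tables it was 1.43 for Ccn1 (SE 0.17, adjusted p = 4.49e-15) and 0.67 for Yap1 (SE 0.18, adjusted p = 0.00807). Like the changes, these differences rest on 1 sample each.

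The other members did not pass in either of those differences. Ajuba stood 0.22 higher in the clone than at 2 weeks (interval -0.057 to 0.51) and 0.21 higher than at 5 weeks (interval -0.22 to 0.63). Lats2 differed by 0.22 from its value at 2 weeks (interval -0.12 to 0.55) and by -0.10 from that at 5 weeks (interval -0.50 to 0.30). In the authors' deposited tables the differences for Ankrd1 were -3.98 (SE 1.65, adjusted p = 0.109) and -3.77 (SE 1.69, adjusted p = 0.266), and for Amotl2 the difference from 5 weeks was 1.17 (SE 0.59, adjusted p = 0.381).

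**Figure D3:**
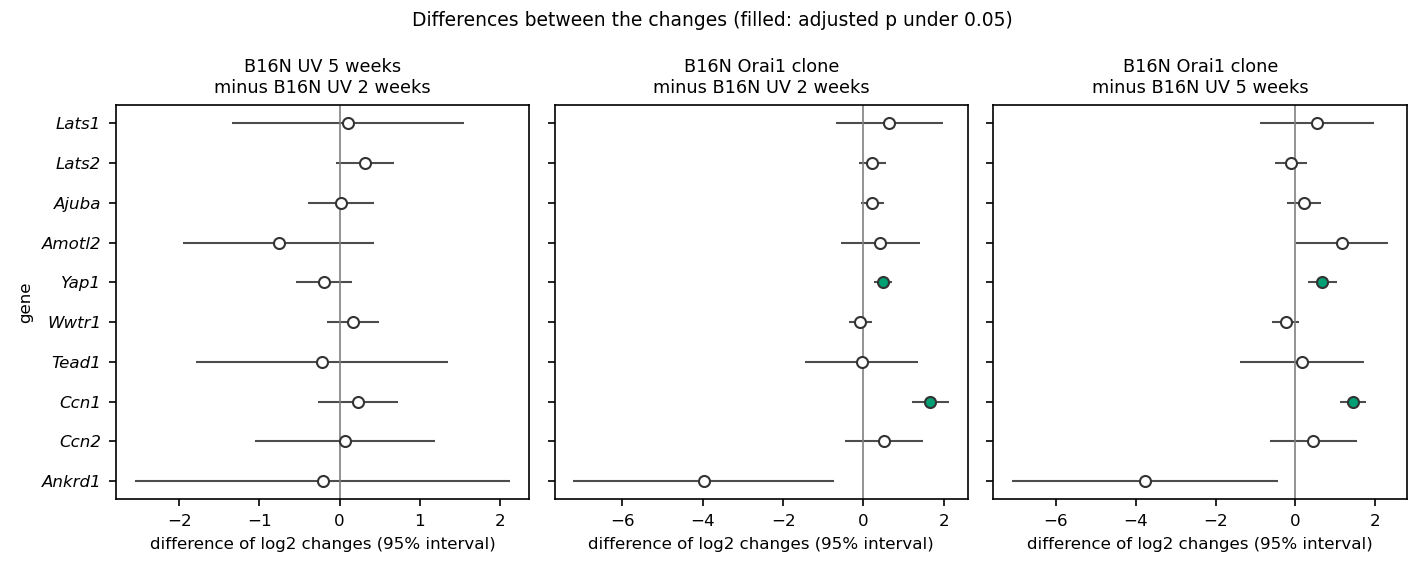
Difference between the log2 changes of 2 comparisons (horizontal axis) for each of the 10 members, with 95% intervals and filled points where the adjusted p was under 0.05. No member is filled for 5 against 2 weeks of UV, and Ccn1 and Yap1 are filled for the clone against both UV times.

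Beyond the 10 members, 83 genes of the pathway and of a YAP target list were examined, of which 55 had a row with values of their own in each mouse comparison. At 2 weeks 8 of the 55 fell and none rose, at 5 weeks 3 fell and 1 rose, and in the clone 12 fell and 7 rose. These are 14.5%, 7.27% and 34.5% of the 55, beside 7.67%, 4.78% and 22.0% of all rows. Their median log2 changes were -0.17, -0.12 and -0.19, against 0.028, 0.025 and 0.072 for all rows. All rows include symbols with shared values, which the 55 leave out, so these shares and medians are not of like sets. The lists were also chosen with earlier results of these data known, and nothing is read from the shares. The clone differed from 2 weeks of UV for 10 of the 55 and from 5 weeks for 6, and the UV times differed for 4. In the same order, 11.7%, 5.35% and 3.33% of all rows differed. Genes whose values were shared with another symbol were left out. Some shared them in a pair at a small SE, such as the 14-3-3 genes Ywhaz and Ywhaq. The tables do not show to which gene such values belong. Others shared them with a large set, such as Foxf2 in a set of 125 symbols at 2 weeks (SE 3.86). Why values were shared was not tested.

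Of 19 other kinase and upstream genes with own values, 2 fell at 2 weeks and none passed at 5 weeks, where 1 had an unadjusted p under 0.05. Wwc2, a relative of the KIBRA scaffold that activates LATS, fell by 0.52 (SE 0.14) and Stk38, a kinase related to LATS, by 0.26 (SE 0.089) at 2 weeks in the authors' deposited table. In the clone 3 fell and 1 rose. Of all rows, 7.67% passed at 2 weeks, 4.78% at 5 weeks and 22.0% in the clone. Sav1, the scaffold of MST kinases, fell by 0.51 (SE 0.10), Tnik, a MAP4K family kinase, by 1.16 (SE 0.43) and Stk38 by 0.31 (SE 0.099) in the authors' deposited table. Fat2, an atypical cadherin gene related to the receptor Fat4, was the 1 that rose, by 2.63 (SE 0.54, adjusted p = 1.72e-05) according to the authors' deposited table. The MST kinase genes Stk3 and Stk4 did not pass in any comparison. Stk3 stood at -0.34 (SE 0.14), -0.0016 (SE 0.16) and -0.18 (SE 0.14), and Nf2, the merlin gene, at -0.21 (SE 0.078), 0.12 (SE 0.11) and 0.19 (SE 0.090) in the authors' deposited tables.

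The angiomotin genes went in different directions. Amot, the founding member of the family that also holds Amotl2, rose at 5 weeks by 1.25 (SE 0.39, adjusted p = 0.0317) and in the clone by 2.32 (SE 0.25, adjusted p = 1.35e-18), and stood at -0.33 (SE 0.35) at 2 weeks in the authors' deposited tables. Amotl1 fell in the clone by 0.55 (SE 0.11). In the authors' deposited tables the difference between Amot in the clone and at 2 weeks passed, at 2.65 (SE 0.43, adjusted p = 5.23e-08). Of the LIM proteins related to Ajuba, Limd1 fell in the clone by 0.35 (SE 0.12), and Wtip stood at -0.24, -0.33 and -0.29 in the authors' deposited tables without passing.

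In all, 12 other adaptors and inhibitors had own values, and 1 passed at 2 weeks, 2 at 5 weeks and 4 in the clone. The shares of all rows were 7.67%, 4.78% and 22.0%. The fall at 2 weeks was that of Tjp1, which encodes the tight junction protein ZO-1 (-0.49, SE 0.17, adjusted p = 0.0489), as the authors' deposited table has it. Csnk1e, a casein kinase gene whose product marks YAP for degradation, fell by 0.71 at 5 weeks (SE 0.15) and by 1.38 in the clone (SE 0.11, adjusted p = 9.61e-35), and stood at 0.042 (SE 0.088) at 2 weeks in the authors' deposited tables.

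STRIPAK is a phosphatase complex that switches off MST kinases. Of the 11 genes listed for it, 10 had a row, all with own values. Of these, 2 fell at 2 weeks, none passed at 5 weeks, where 1 had an unadjusted p under 0.05, and in the clone 3 fell and 1 rose. Beside these counts, 7.67%, 4.78% and 22.0% of all rows passed. Slmap, the adaptor that brings MST kinases to the complex, fell by 0.50 at 2 weeks (SE 0.10) and by 0.34 in the clone (SE 0.12) in the authors' deposited tables. The striatin gene Strn3 fell by 0.32 (SE 0.088) and by 0.64 (SE 0.11) in the same comparisons. Sike1, a further subunit, rose in the clone by 0.64 (SE 0.18), and the catalytic subunit gene Ppp2cb fell by 0.32 (SE 0.12).

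Among 4 further DNA-binding partners and cofactors with own values, Tead3, Tead4, Vgll3 and Vgll4, none passed in any comparison, while 2 had an unadjusted p under 0.05 in the clone. These were Vgll3 (-0.46, SE 0.19, adjusted p = 0.0699) and Vgll4, whose protein competes with YAP for TEAD (0.42, SE 0.18, adjusted p = 0.0732), by the authors' deposited table.

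**Figure D4:**
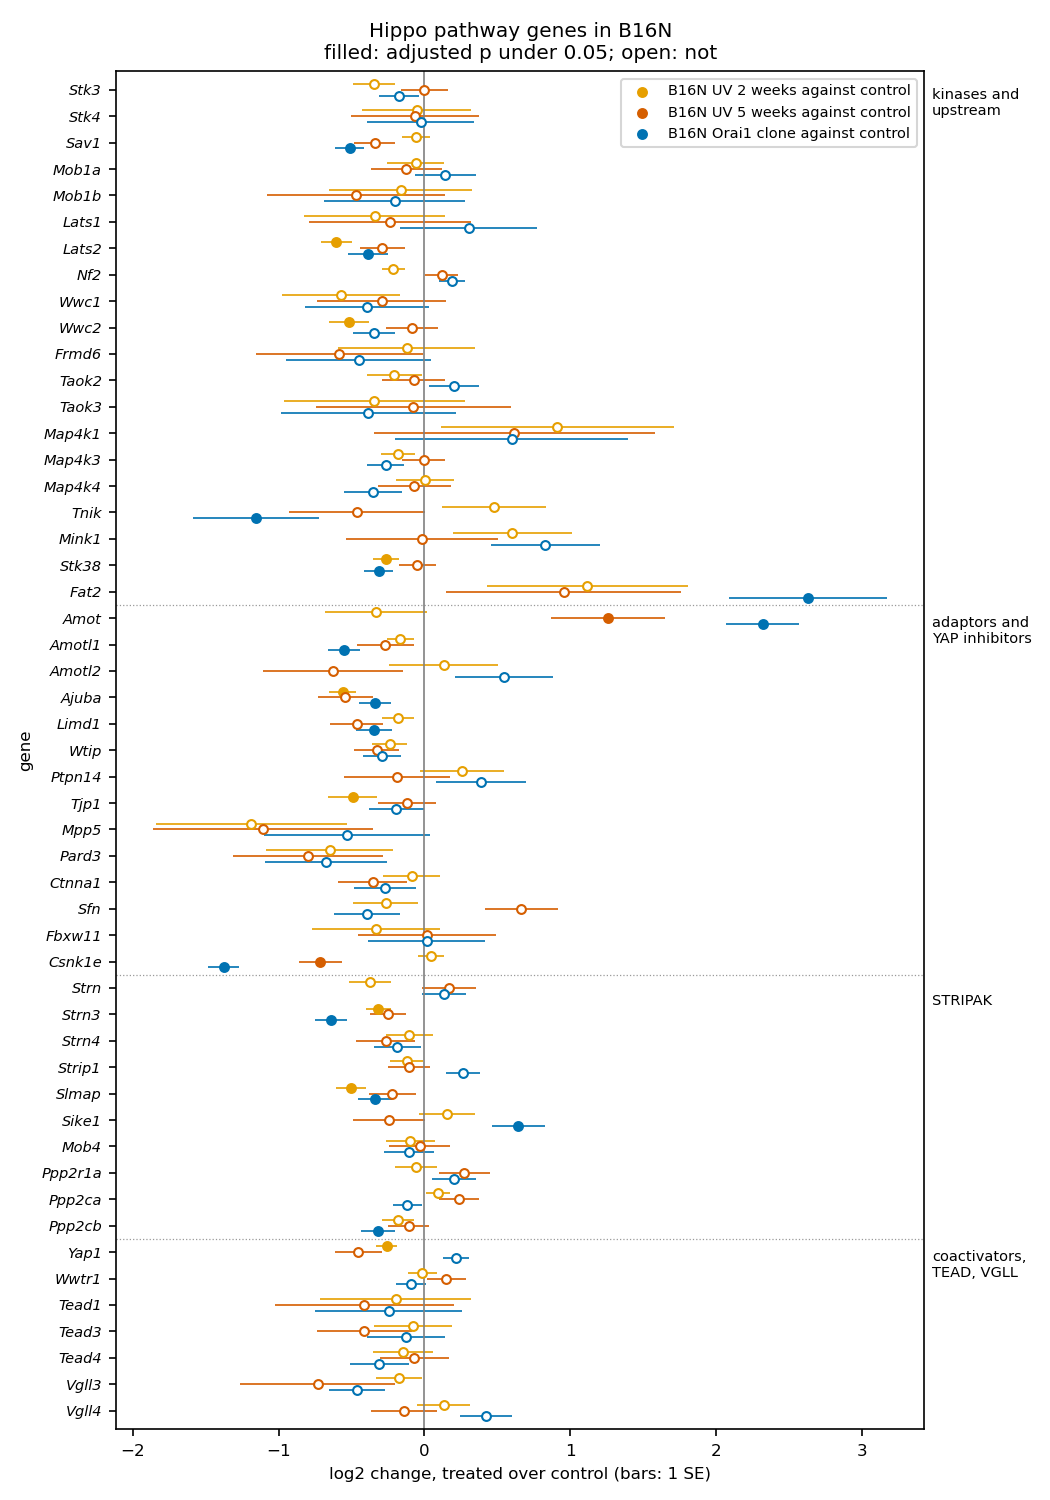
Log2 change (horizontal axis, treated over control) with 1 SE as bars for 51 pathway genes, members included, that had values of their own and an SE of at most 1, by role from top to bottom. Filled points had an adjusted p under 0.05, and among those of the Orai1 clone Amot, Fat2, Csnk1e and Tnik lie farthest from 0.

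A list of 22 YAP and TAZ targets known from other cell types held 5 members and 17 other genes, 11 of them with own values. At 2 weeks 3 of the 11 fell and none rose, at 5 weeks 2 fell and none rose, and in the clone 4 rose and 3 fell. Of all rows, 3.13% rose and 4.55% fell at 2 weeks, 3.07% and 1.71% at 5 weeks, and 10.3% and 11.6% in the clone. Targets other than the members thus went both ways in the clone. Of the 5 members on the list, Ccn1 and Ccn2 rose there and Lats2 fell (-0.39, SE 0.14). Ankrd1 (-3.42, SE 1.44) and Amotl2 (0.55, SE 0.34) did not pass. Of the target list, Igfbp3, Nt5e and Nuak2 had no row, and Asap1, Gadd45a and Foxf2 had values shared with other symbols.

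Axl, the gene of a receptor tyrosine kinase linked to the invasive state of melanoma, passed in each comparison, with the sign opposite to that of Ccn1. It fell by 0.37 at 2 weeks (SE 0.11, adjusted p = 0.0152), by 1.48 at 5 weeks (SE 0.19) and by 2.75 in the clone (SE 0.15, adjusted p = 6.51e-74) in the authors' deposited tables. In the authors' deposited tables the change in the clone differed from that at 5 weeks by -1.27 (SE 0.24, adjusted p = 9.74e-06). Tgfb2, which encodes a growth factor, fell by 0.92 at 2 weeks (SE 0.22) and by 1.92 in the clone (SE 0.25), with -0.35 (SE 0.27) at 5 weeks in the authors' deposited tables. Fjx1, a secreted kinase related to Drosophila four-jointed, fell at 5 weeks by 1.12 (SE 0.25), and Arhgef17 fell in the clone by 0.79 (SE 0.19).

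Dock5, the gene of a Rac exchange factor, fell by 0.67 at 2 weeks (SE 0.15) and rose by 0.56 in the clone (SE 0.14) in the authors' deposited tables, and the difference of 1.22 passed (SE 0.21, adjusted p = 3.16e-07). F3, which encodes tissue factor, rose in the clone by 1.21 (SE 0.22), the RNA-binding protein gene Rbms3 by 2.47 (SE 0.45) and the matrix protein gene Ccdc80 by 1.75 (SE 0.60) in the authors' deposited table. Ccdc80 stood at -3.74 (SE 1.52) and -3.66 (SE 1.64) under UV, without passing.

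**Figure D5:**
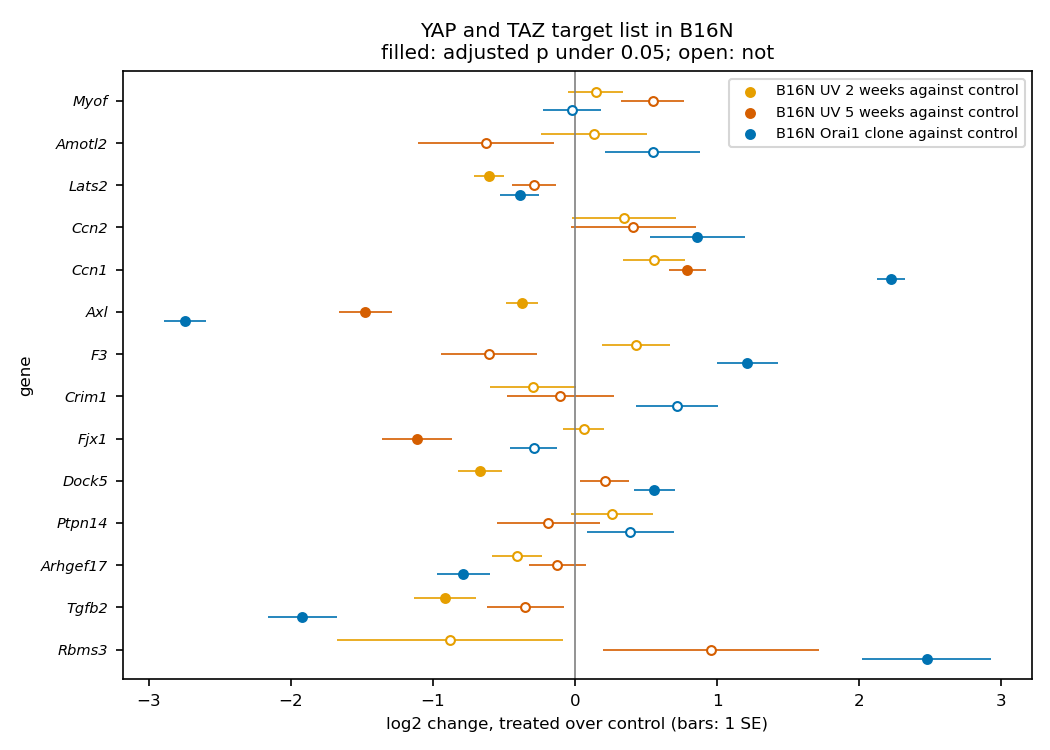
Log2 change (horizontal axis, treated over control) with 1 SE as bars for 14 genes of the YAP and TAZ target list that had values of their own and an SE of at most 1. Filled points had an adjusted p under 0.05, and in the Orai1 clone Ccn1 stands at 2.22 and Axl at -2.75.

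Ccn1 is also an immediate early gene and a target of the serum response factor SRF, and both groups were examined beside it. Of 13 immediate early genes with own values, 4 rose and none fell at 2 weeks, 1 rose and none fell at 5 weeks, and 7 rose and 3 fell in the clone. For both groups, the shares of all rows were 3.13% higher and 4.55% lower at 2 weeks. They were 3.07% and 1.71% at 5 weeks, and 10.3% and 11.6% in the clone. In the authors' deposited table for the clone, the rises were largest for Fosb (5.55, SE 0.67), Fos (1.96, SE 0.30), Nr4a1 (1.53, SE 0.42) and Junb (1.48, SE 0.14), and the genes that fell were Nr4a2 (-0.83, SE 0.30), Jund (-0.78, SE 0.11) and Jun (-0.51, SE 0.11). Atf3 was left out of these counts because its values were shared with another symbol. Its called values were 1.45 at 5 weeks (SE 0.22) and -1.61 in the clone (SE 0.25). The part of either group in the change of Ccn1 was not tested.

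Of the SRF and cytoskeleton list, 1 gene rose and 2 fell among 10 with own values at 2 weeks, 1 fell at 5 weeks, and 3 rose and 5 fell among 9 in the clone. Srf itself rose in the clone by 0.53 (SE 0.11), with Vcl, the vinculin gene, at 0.99 (SE 0.39) and Cnn2 at 0.47 (SE 0.16). The actin-binding genes Flna (-0.78, SE 0.12), Zyx (-0.74, SE 0.20) and Tpm1 (-0.51, SE 0.086) fell in the authors' deposited table. Mrtfa (-0.44, SE 0.15) and Tpm4 (-0.35, SE 0.12) of the same list fell there too. Tpm1 also fell at 2 weeks by 0.30 and at 5 weeks by 0.63.

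For 3 members, the genes with the most similar set of 3 changes were looked up among 5196 genes of own values and an SE of at most 0.3 throughout. Nearest to Ccn1, by the root mean square difference over the 3 comparisons, were Atp6v1h (0.32), Tmem40 (0.35) and Dap (0.37). Nearest to Ccn2 were Get3 (0.027), Dctn3 (0.031) and 6430590A10Rik (0.035), and nearest to Amotl2 were Trdmt1 (0.11), Tob1 (0.12) and Mapk1ip1l (0.16). No gene lay as near to Ccn1 as Get3, Dctn3 and 6430590A10Rik lay to Ccn2, and the 3 comparisons share their control. The SE limit held for the genes searched and not for Ccn2 (SE 0.33 to 0.44) or Amotl2 (SE 0.34 to 0.48). The distances printed for these members are smaller than their own SE, so nothing is read from the order of their neighbours.

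Markers of the labelled cell type were present. All 7 pigment cell genes looked up (Tyr, Dct, Tyrp1, Pmel, Mlana, Mitf and Sox10) had a row in each mouse table. Of the 6 with own values 4 rose at 2 weeks, 5 at 5 weeks and 2 in the clone, where Dct fell. In the same order, 3.13%, 3.07% and 10.3% of all rows rose and 4.55%, 1.71% and 11.6% fell. The same shares stand beside the counts of reference genes below. Sox10, with values shared with another symbol, had a called value at 5 weeks (-0.60, SE 0.15), opposite in sign to the rises there. Of 6 macrophage markers, 3 had a row per comparison. Lyz2, the only 1 with own values, stood at 0.38 (SE 0.94), 3.47 (SE 0.70) and 2.78 (SE 0.64) in the authors' deposited tables. It rose in both comparisons in which Ccn1 rose. Cd68, whose values were shared with another symbol, stood at 0.19 (SE 0.85), -0.15 (SE 0.998) and -0.61 (SE 0.91) and did not pass. The other macrophage markers with a row had shared values too and did not pass. No fibroblast, endothelial or epithelial marker had values of its own. The part of such cells in the members' changes was not tested. Of 7 genes often used as stable references that had own values, none passed under UV and none had an unadjusted p under 0.05 there, whereas in the clone Ppia (1.10, SE 0.23) and Sdha (0.30, SE 0.11) rose and Pgk1 (-1.42, SE 0.16) fell in the authors' deposited table. An eighth such gene, Ywhaz, had a called value at 2 weeks (-0.43, SE 0.080) that it shared with another symbol.

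In the human lines, both tables listed one set of 420 genes, and no member was among them. Of the other pathway and target genes, 3 had a row. FAT1 had a deposited log2 change of -1.01 in WM983 and 0.25 in UACC257, RBMS3 of 1.66 and -0.51, and STRIP2 of -1.79 and 0.094 in the authors' deposited tables, with a deposited p of 5.00e-05 for each in WM983 and of 0.0729, 0.0943 and 0.59 in UACC257. The direction of these signs is not given in the sources used here, so they are not set beside the mouse values. How the 420 genes were selected was not examined. Neither the missing members nor the unlike p-values of WM983 and UACC257 are therefore read as a result.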

How the data were processed

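The authors deposited 5 tables of comparisons between samples, and per the file headers these list symbols with a log2 fold change, a test statistic (here called a score) and a p-value. The submitters' processing notes name GRCm38. Which aligner, counting tool and test were used is not given in the sources used here. Signs in the mouse tables were turned: all 1357 genes with a row in 1 mouse table alone had a negative deposited value, as genes without control reads would have if the control is the numerator. In the mouse tables the deposited p-value equals the two-sided normal p of the score (largest gap 5.0e-08), so the SE was taken as the ratio of log2 fold change to score.

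One row without a symbol was dropped from each mouse table, and 3 rows without a p-value from that of the clone. Adjusted p-values are Benjamini-Hochberg values over each table, and for differences over all genes with a row in both. The number of libraries behind the p-values is not given. The design assumed either levels or comparisons, and the latter applied. Genes sharing exact values with another symbol stayed in the adjustment and were left out of list counts.

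The members and lists were chosen with earlier results of these data known. Named genes were all members, up to 4 passing genes per list and comparison with the largest changes, and the 3 genes most like Ccn1, Ccn2 and Amotl2. Stk3, Stk4, Nf2, Wtip, Vgll3, Vgll4, Ccn4, Mrtfa, the value of Tpm4 in the clone and values without a pass were added after the values were seen. Orai1 was not analysed here. The procedure was tested on simulated data. These held normal noise of the implied SEs and set changes in rows of SE at most 0.5, with each comparison drawn on its own. They cannot show whether those SEs are right, or how the shared control acts on the differences. Alternatives were an adjusted p under 0.01, a 2-fold minimum, rows of SE at most 0.5, the median of rows of SE at most 0.3 set to 0, and shared values left out. Python 3.11.15, numpy 2.4.6, pandas 2.3.3, scipy 1.17.1 and matplotlib 3.10.9 were used.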

Additional observations from a re-analysis of the deposited data

Results flagged for a closer look

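By the test of the difference between 5 and 2 weeks of UV, no member passed. Of the other listed genes with values of their own, 7 did, each from the authors' deposited tables with 1 sample per time. Of all rows, 3.33% passed. The 7 were 4 of 55 pathway and target genes, 1 of 10 genes of the SRF and cytoskeleton list, 1 of 6 pigment cell genes, and Ccn4. Among 13 immediate early genes and 7 reference genes none passed. In the authors' deposited tables Csnk1e differed by -0.76 on the log2 scale (SE 0.17, adjusted p = 0.0014), with 0.042 at 2 weeks and -0.71 at 5 weeks. Axl in the authors' deposited tables differed by -1.10 (SE 0.22, adjusted p = 9.07e-05), with -0.37 and -1.48, and Fjx1 by -1.18 (SE 0.29, adjusted p = 0.0034), with 0.061 and -1.12. Dock5 differed in the authors' deposited tables by 0.88 (SE 0.23, adjusted p = 0.00855), with -0.67 and 0.21.

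Outside the pathway and target lists, Ccn4, a relative of Ccn1, differed in the authors' deposited tables by -2.18 (SE 0.65, adjusted p = 0.0298), with 0.73 at 2 weeks and -1.45 at 5 weeks, neither of which passed alone. The tropomyosin gene Tpm4 in the authors' deposited tables differed by -0.77 (SE 0.17, adjusted p = 8.17e-04), with 0.33 and -0.44, and the pigment cell gene Mlana by 0.52 (SE 0.16, adjusted p = 0.0353), with 0.0077 and 0.53.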

How the results depend on the processing

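No paired analysis was possible because each group holds 1 sample. Of the 10 members' 30 changes, the sign turned in 1 case among the alternatives tried, that of Wwtr1 at 2 weeks (0.0096 with the median of precise rows set to 0), and of the differences in 1, that of Ajuba between 5 and 2 weeks (-0.017 under that setting). With a 2-fold minimum, 0 members passed at 2 weeks, 0 at 5 weeks and 1 (Ccn1) in the clone, 1 member differed between the clone and each UV time, and of the other pathway and target genes 0 passed at 2 weeks and 9 in the clone. In tests of those genes' differences, added after seeing the data, that minimum left 2 of 4 between 5 and 2 weeks (Axl and Fjx1, without Csnk1e and Dock5). With an adjusted p under 0.01, 1 member passed in the clone, as Ccn2, Ajuba and Lats2 lost their calls, and 5 other genes passed at 2 weeks. With rows of SE at most 0.5 alone, 2 members passed at 5 weeks, since fewer rows were adjusted. The remaining counts over the members and over the pathway and target genes together stayed within 1.5 times, and leaving out shared values changed no call of a member. The intervals of Lats1, Tead1 and Ankrd1 are wide, and the depth behind them is unknown.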

Other observations

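Over the 13935 genes with a row in each mouse table, the median SE was 0.29 at 2 weeks, 0.34 at 5 weeks and 0.28 in the clone. Of the 10 members 8 likewise had their largest SE at 5 weeks, and the exceptions were Ccn1 and Ankrd1, whose SE was largest in the clone (1.44). Ccn1 had its largest SE at 2 weeks (0.22, with 38.3% of rows more precise), against 0.13 at 5 weeks (4.62%) and 0.10 in the clone (3.32%). Yap1 had its largest at 5 weeks, as the table did, but its place also moved, with 14.4% of rows more precise there (SE 0.16), against 0.58% at 2 weeks (SE 0.072) and 0.652% in the clone (SE 0.089). The cause of these shifts was not tested, and the tables hold no counts with which to test it.

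Within the CCN family, 3 of 6 genes had values of their own. Ccn4, a Wnt-responsive member, stood at 0.73 (SE 0.32) at 2 weeks, -1.45 (SE 0.56) at 5 weeks and -0.31 (SE 0.39) in the clone in the authors' deposited tables, and passed in none of these, although its UV times differed from each other.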
